A study of Mus musculus and unidentified plasmid with 60 samples.

Results

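In cortical neurons carrying a dominant-negative RFX protein, 291 bound regions were called in both replicate columns after 1 h of depolarization and had no overlapping call in silenced neurons. They were chosen from the 1 h list by 2 conditions, a peak centre in both columns and 0 bases of overlap with any region of the 0 h list. They are 291 of the 66910 regions with a centre in both columns at 1 h, of the 122135 regions of that list and of the 295409 regions of all 3 lists. Absence at 0 h is what chose them, so it is described here and was not tested. The count rests on both columns of either list: with 1 column left out it was 743 or 1819 (second or first 0 h column) and 1554 or 6907 (first or second 1 h column). Below they are called 1 h-only regions.

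The neurons were cortical cells of E16 CD-1 mouse embryos, kept in culture and harvested on day in vitro (DIV) 7. Lentivirus carrying the MYC-tagged dominant-negative construct (RFX-DN) was added on DIV 2, and both groups used here carried it, so neither shows native RFX binding. Both were silenced overnight from DIV 6 with tetrodotoxin, which blocks sodium channels, and an NMDA receptor antagonist. The group labelled 0 h had no depolarization, and the group labelled 1 h had 55 mM KCl for 1 h after the drugs were removed. Each group has 2 ChIP-seq libraries made with an anti-MYC antibody, and nothing in the labels says whether the 2 came from separate cultures. For the group titled WT the labels name no treatment. The lists combine the 2 libraries of a group and do not say which library is which column, and they hold no read counts, so the depth is unknown.

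RFX proteins are transcription factors with a winged-helix DNA-binding domain that recognise X-box sequences, and they are best known for switching on the genes of cilia. A dominant-negative form competes with the native proteins for the same sites. Membrane depolarization lets calcium into neurons, and within minutes this starts transcription of the immediate early genes, among them Fos, Nr4a1 and Npas4, through factors such as CREB that already sit on their promoters. These genes encode transcription factors and feedback regulators that shape the later response of the neuron to activity.

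Positions are those of the lists, in mm9. No annotation or genome of that build was used, so no region was assigned to a gene, an exon or an intron by an annotation, and no sequence of a listed region was read. To ask which regions lay at activity-regulated loci, approximate mm9 positions of 46 such genes were written from general knowledge, to about 10 kb. A region was counted at a locus when its middle lay within 25 kb of that position. A gene name below therefore marks a neighbourhood, with no statement on promoter, gene body or distance to the start site. A gene without a region may have been placed wrongly. The planned list of activity-regulated genes was longer, and genes such as Crem, Gem and Rheb were given no position. Shares at the loci hold for the 46 only. All 46 genes lay on the same chromosome in the RefSeq table for GRCm38, and all 28 pairs of neighbouring loci stood in the same order there. Chromosome and order cannot show whether a position is right to 10 kb.

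The promoters of 3 genes at whose loci 1 h-only regions were found are shown as examples. Each is the stretch of 250 bases before the RefSeq start site, from GRCm38.p6, on the gene's own strand. Capitals mark the letters TGACG on either strand, the core of the cAMP response element (CRE) bound by CREB. In Btg2 they form the full CRE, TGACGTCA. All 3 examples hold these letters, which were absent from the same stretch of Fosl2, Gadd45g and Jund.
Fos (plus strand): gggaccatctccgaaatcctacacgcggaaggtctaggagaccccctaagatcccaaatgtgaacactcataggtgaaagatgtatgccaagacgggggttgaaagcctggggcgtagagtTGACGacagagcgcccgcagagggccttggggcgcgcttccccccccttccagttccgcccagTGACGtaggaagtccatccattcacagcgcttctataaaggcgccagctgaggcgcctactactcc
Npas4 (minus strand): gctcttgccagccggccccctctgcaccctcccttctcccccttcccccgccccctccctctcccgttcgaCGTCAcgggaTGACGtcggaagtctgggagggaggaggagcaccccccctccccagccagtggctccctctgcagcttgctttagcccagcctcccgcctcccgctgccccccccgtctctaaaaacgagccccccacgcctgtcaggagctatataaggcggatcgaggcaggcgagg
Btg2 (minus strand): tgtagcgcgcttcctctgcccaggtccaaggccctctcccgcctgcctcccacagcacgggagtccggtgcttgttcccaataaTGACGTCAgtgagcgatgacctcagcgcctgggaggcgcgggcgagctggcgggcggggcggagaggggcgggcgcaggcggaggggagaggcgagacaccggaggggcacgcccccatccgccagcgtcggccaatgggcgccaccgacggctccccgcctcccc

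The CRE core TGACG occurred in this window in 6 of the 9 genes with a 1 h-only region at their locus, namely Btg2, Fos, Npas4, Nr4a1, Nr4a2 and Per1. It occurred in 17.8% of the 32851 RefSeq promoters of the same length. Genes at the other 37 loci were not counted apart, so a difference from them was not tested. The full site TGACGTCA occurred in Btg2 alone of the 9, and in 1.55% of all promoters. The X-box arm GTTGCC occurred in Fosl2 alone of the 9, and in 10.4% of all promoters. No other spelling of the arm was searched. The AP-1 site TGANTCA and the CArG box bound by serum response factor occurred in 0 of the 9 windows, and in 6.75% and 1.47% of all promoters. Both strands were searched, a full CRE holds the core on either strand, and the windows of the 9 genes are 10 in number because Per1 has 2 start sites. These matches describe letters in a window. No listed region was placed on any of these windows.

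Regions called with 2 centres only after depolarization were found at 9 of the 46 activity-regulated loci. These loci held 12 of the 291 regions, or 4.12% (exact Clopper-Pearson 95% interval 2.15% to 7.09%), against 0.236% of the 66619 regions with 2 centres at 1 h that overlapped a 0 h region. With the regions chosen without 1 replicate column, the share at the loci was 0.666% to 1.88%, lowest without the second 1 h column. Under other definitions of a match with the 0 h list it was between 0.586% (overlap of 50% of each region) and 4.74% (a 0 h region within 1 kb counted as met). Seen from the loci, 12 of 169 regions with 2 centres at 1 h were 1 h-only, or 7.10% (interval 3.72% to 12.1%). The share over all 66910 such regions was 0.435%, and outside the loci it was 279 of 66741, or 0.418% (interval 0.371% to 0.470%). These intervals cover counting error only and treat neighbouring regions as independent, and no test was made, since regions are not replicates of a condition. Positions at Fos, Nr4a1, Nr4a3 and Jund had been seen in earlier results of these data when the loci were written down. Without those 4, 8 of 149 regions were 1 h-only, or 5.37% (interval 2.35% to 10.3%), at 6 of 42 loci.

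Regions lost after depolarization were no more frequent at these loci than elsewhere by their shares. Of 198 regions with 2 centres at 0 h, 18 had no overlap at 1 h, or 9.09% (interval 5.48% to 13.99%), against 15.1% of all 105643 and 15.1% of the 105445 outside the loci. These 18 lay at 15 of the 46 loci, and 9 loci had a 1 h-only region of 2 centres. The 2 counts of loci come from sets of unlike size, 15919 and 291 regions, and cannot be compared. The share of each set at the loci was 0.113% and 4.12%. Regions called in 1 column only at 1 h and absent at 0 h numbered 48 at the loci, of which 34 had their centre in the first column and 14 in the second. Counting these too, 26 of the 46 loci held a 1 h-only region of some support, a count that was not made for windows elsewhere. The single-column regions were 48 of the 114 regions with 1 centre at the loci, or 42.1% (interval 32.9% to 51.7%). This share was 14.3% over all such regions in the 1 h list and 14.2% outside the loci.

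**Figure D1:**
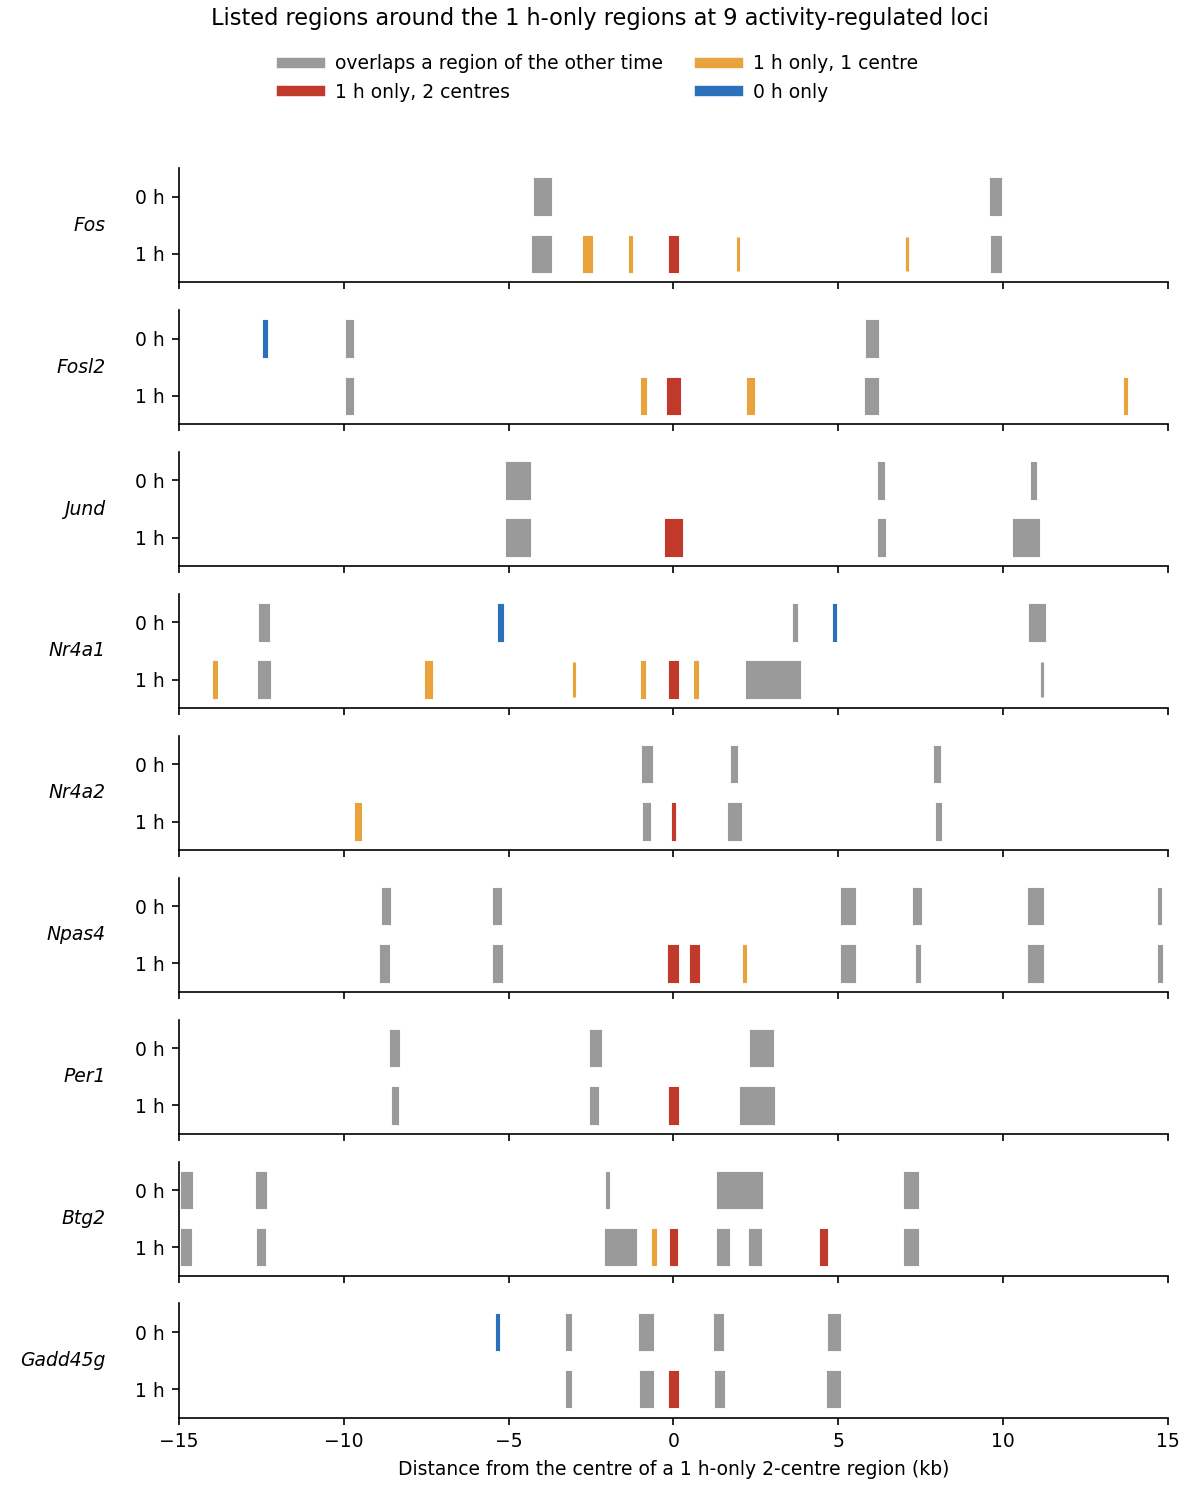
Regions of the 0 h list (upper row) and the 1 h list (lower row) within 15 kb of a 1 h-only region with 2 centres, at 9 loci named from approximate mm9 positions. The horizontal axis is the distance in kb from the middle of that region (the leftmost at Npas4 and Btg2, the rightmost at Nr4a1), bars have the listed widths with a thin outline that widens the narrowest, and colours give overlap with the other time. Red bars stand between grey pairs that are present at both times.

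Of the AP-1 genes, whose products pair as the leucine-zipper factor AP-1, the loci of Fos, Fosl2 and Jund each held 1 such region. At Fos, the prototype of the immediate early genes, the region ran from 86817100 to 86817320 on chromosome 12, with centres at 86817200 and 86817190. The nearest 0 h region lay 3640 bases away, from 86813020 to 86813460, and was listed at 1 h with the same centre, 86813230, in both columns at both times. On the other side the next region, at 86826850 to 86827130 in the 0 h list, was present at both times as well. Between these flanks the 0 h list had no region, while the 1 h list had 6, of which 5 had a centre in 1 column only. These 5 were 10 to 140 bases wide.

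Fosl2 encodes a Fos family partner of Jun proteins. Its 1 h-only region was among the widest, with 320 bases on chromosome 5 from 32458100 to 32458420, and lay 5710 bases from the nearest 0 h region. On either side stood a region with a centre in 1 column only, at 32457300 to 32457390 and at 32460530 to 32460660, which the 0 h list did not have either. Jund encodes a Jun protein that is made in resting cells too. Only 2 of the 291 regions were wider than the one at its locus, which measured 470 bases on chromosome 8, from 73227050 to 73227520, with centres at 73227400 and 73227460. Its neighbour 4160 bases away kept its extent, with 660 bases at 0 h and 650 at 1 h, and its centre at 73222690 in both columns at both times. The loci of Fosb, Jun and Junb held regions with 2 centres at both times, and 0, 1 and 2 1 h-only regions with a single centre.

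Nr4a genes encode orphan nuclear receptors that are induced within an hour of activity. The Nr4a1 locus on chromosome 15 held 2 regions, from 101084300 to 101084490 (190 bases) and from 101103130 to 101103340 (210 bases). They lay 6210 and 3550 bases from the nearest 0 h region. A further 5 single-column 1 h-only regions lay at the locus, the most for any of the 46 together with Fos. A 0 h region with 2 centres, from 101097930 to 101098040, had no overlap at 1 h, so the locus held changes of both kinds. Next to the second region, a 1 h region of 1570 bases (101105470 to 101107040) covered a 0 h region of 60 bases with 1 centre. At Nr4a2 the region was narrow, 50 bases on chromosome 2 from 56967500 to 56967550, and lay 660 bases from a 0 h region that was present at both times. The Nr4a3 locus had 4 single-column 1 h-only regions, and its 5 regions with 2 centres at 1 h were all met at 0 h.

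Npas4 encodes a neuron-specific transcription factor that is induced by calcium influx. Its locus on chromosome 19 held the closest pair of the 291, from 4983130 to 4983370 (240 bases) and from 4983780 to 4983990 (210 bases), 410 bases apart. Both centres of the second fell on 4983860, and those of the first were 70 bases apart. The nearest 0 h region of both was that at 4988380 to 4988720, 5010 and 4390 bases away, which was listed at 1 h too. Another 1 h-only region, with a centre in the second column only, stood at 4985390 to 4985430. Per1, a clock gene that is also induced by CREB, had a region of 220 bases on chromosome 11 from 68910640 to 68910860. It lay 2130 bases from a 0 h region, between 2 regions with 2 centres at both times.

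Among the feedback genes, Btg2, which encodes an antiproliferative regulator of mRNA decay, had 2 regions at its locus on chromosome 1. They ran from 135972340 to 135972510 (170 bases, both centres at 135972410) and from 135976910 to 135977040 (130 bases). Between them the 0 h list held a single region of 1320 bases, from 135973770 to 135975090, where the 1 h list had 2 regions of 290 and 310 bases. To the left, a 0 h region of 30 bases with 1 centre was met by a 1 h region of 900 bases with 2 centres. Gadd45g, a stress-response gene linked to DNA demethylation, had a region of 190 bases on chromosome 13 from 51944200 to 51944390. It lay 560 bases from the nearest 0 h region, which had its centre at 51943470 in both columns at both times. The locus of Dusp1, which encodes a phosphatase that switches off MAP kinases, had 4 single-column 1 h-only regions, and that of Gadd45b had 1. Their 6 and 3 regions with 2 centres at 1 h were all met at 0 h.

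By the roles given to the genes, 7 of 25 loci of immediate early transcription factors, 2 of 12 of feedback and signalling genes and 0 of 9 of effector genes, which act at synapses or outside the cell, held a 1 h-only region with 2 centres. With 9 of the 46 loci in all, the difference between the roles was not tested. The locus of Bdnf, a secreted neurotrophin, held 2 with a single centre and that of Homer1, a postsynaptic scaffold protein, held 3. That of Arc, which controls AMPA receptor uptake, held 0 of any support, with 6 regions with 2 centres at 1 h. Egr1, Egr2, Egr3 and Egr4, zinc-finger immediate early factors, had 6, 6, 3 and 4 regions with 2 centres at 1 h, all of them met at 0 h, and 2, 1, 0 and 0 single-column 1 h-only regions. The presence of a gene among the 9 thus rests in most cases on 1 region, and the columns give no error for it.

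The 12 regions at the loci stood closer to other 1 h regions than the remaining 279 did, with median gaps of 720 and 3500 bases, but not closer to the 0 h list. Another 1 h-only region of any support lay within 10 kb of 9 of the 12 (75.0%) and of 33 of the 279 (11.8%). For the regions with 2 centres that were met at 0 h this share was 7.60%. The median number of other 1 h regions within 10 kb was 4.5 at the loci and 1 elsewhere. All 12 had as nearest 0 h neighbour a region that was still listed at 1 h, against 184 of 279 (65.9%). Their median width was 210 bases (50 to 470) against 150 bases (20 to 540), and 7 of 12 were at least 200 bases wide against 60 of 279. The distances to the 0 h list overlapped widely, with a median of 3595 bases (560 to 6210) at the loci and 2680 bases (0 to 37030) elsewhere. The 12 come from 9 loci and are not independent. The pairs at Npas4 and Btg2 count each other as neighbours, and at Npas4 the 410 bases between them were the nearest 1 h gap of both. Each of these paired regions also had a single-column 1 h-only region within 10 kb. No test was made of the differences between the 12 and the 279.

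**Figure D2:**
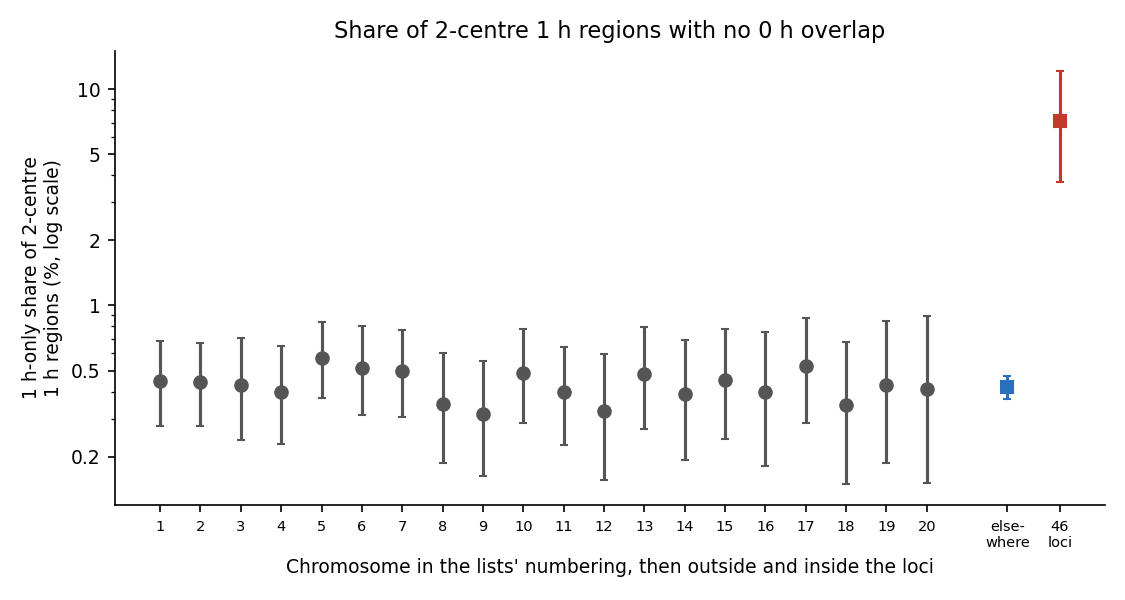
Share of 1 h regions with 2 centres that had no overlap at 0 h, in % on a log axis, by chromosome in the lists' numbering, outside the 46 loci and at the 46 loci. Points are shares and bars exact 95% intervals of counting error. The loci stand at 7.10% and the chromosomes between 0.316% and 0.574%.

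Chromosomes carried 1 h-only regions about in proportion to their regions with 2 centres. On chromosomes 1 to 19 the share was 0.432% ± 0.0710 (mean ± SD over 19 chromosomes), from 0.316% on chromosome 9, with 12 regions, to 0.574% on chromosome 5, with 26. The 95% intervals of these extremes, 0.163% to 0.552% and 0.375% to 0.840%, overlapped. The lists number chromosomes up to 21, and number 20, presumably the X, had 6 of 1455 (0.412%), while number 21 had 0 of 7.

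The 1 h-only regions were narrow. Their median width was 150 bases (quartiles 110 and 190), against 290 bases (quartiles 220 and 350) for regions with 2 centres at 1 h that were met at 0 h. The 0 h regions with 2 centres that had no overlap at 1 h were alike in this, with a median of 170 bases (quartiles 130 and 200). A width of 300 bases or more was reached by 9 of 291 (3.09%) and by 46.2% of the met regions. With the 1 h regions divided into 5 classes of width, the narrowest class, of up to 200 bases, held 242 of the 291, or 1.75% of its 13867 regions. The widest class, of over 360 bases, held 5 of 11591. Width also governs how easily a region is overlapped, so it is not independent of the choice of regions.

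**Figure D3:**
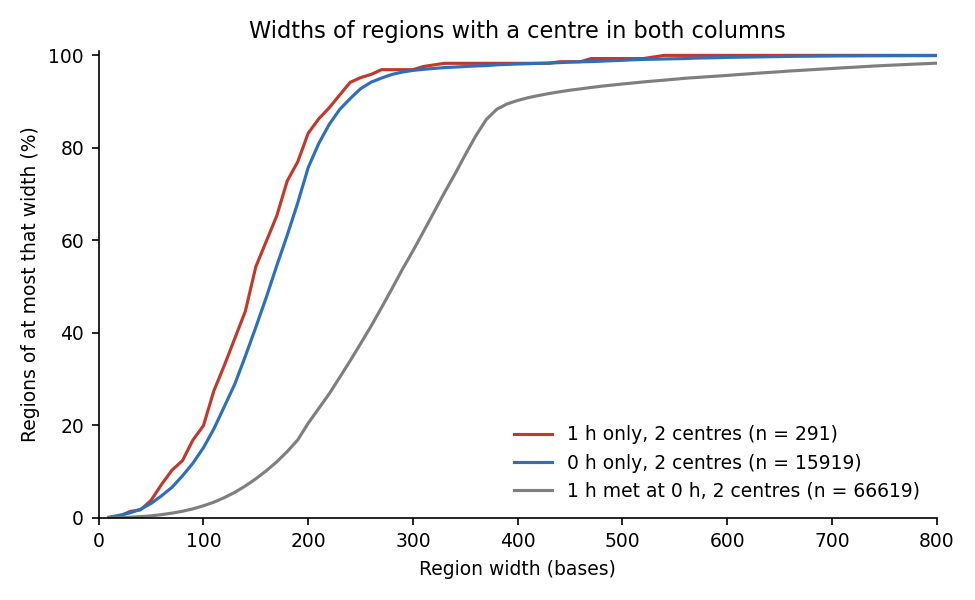
Cumulative share of regions, in %, against region width in bases, for regions with a centre in both columns: 291 that were 1 h-only, 15919 that were 0 h-only and 66619 1 h regions met at 0 h. The 1 h-only and 0 h-only curves rise together, with medians of 150 and 170 bases, to the left of the met regions, with a median of 290 bases.

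The 2 columns placed their centres within 50 bases of each other in most of these regions, but less close than in the met regions. The median distance was 15 bases (quartiles 10 and 30, at most 115), against 10 bases (quartiles 0 and 20) in the met regions. Centres lay within 50 bases of each other in 266 of 291 (91.4%) and in 94.7% of the met regions. Within 10 bases the shares were 121 of 291 (41.6%) and 65.9%. The 1 h-only regions were also narrower, which limits how far apart their centres can lie. They fell on the same position in 29. The first-column centre stood left of the second in 128 and right of it in 134, so neither column was displaced to one side.

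The 1 h-only regions lay about as near to 0 h binding as other regions did. No 0 h region had its middle within 10 kb in 13.4% of them, and no further 0 h region did in 18.8% of the met 1 h regions and 20.2% of the 0 h-only regions with 2 centres. The gap to the nearest 0 h region had a median of 2710 bases (quartiles 900 and 5685), and 253 of 291 (86.9%) had one within 10 kb. The nearest 0 h region had 2 centres in 171 cases (58.8%), was still listed at 1 h in 196 (67.4%) and had a median width of 200 bases. It lay at the lower position in 147 and at the higher in the others. The number of 0 h regions within 10 kb had a median of 2, against 3 for the met regions, a count that there includes the overlapping region itself. Another 1 h region stood within 10 kb of 227 (78.0%). By contrast, 36 (12.4%) had no other region of either list with its middle within 10 kb.

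**Figure D4:**
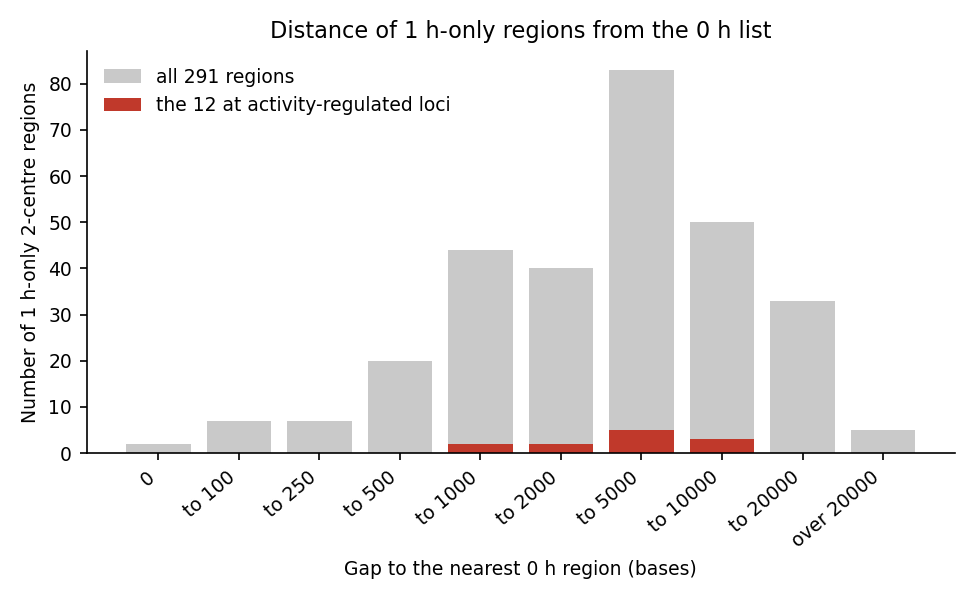
Number of 1 h-only regions with 2 centres by the gap to the nearest 0 h region, in bases, in classes of unequal size. Grey bars give all 291 and red bars the 12 at activity-regulated loci. Only 9 lie within 100 bases of a 0 h region, and the red bars run from 560 to 6210 bases.

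Few regions stood within 10 bases of the edge of the rule, and more stood within 50 bases on its outer side. Just inside it, 2 regions touched a 0 h region without overlap, on chromosome 2 (164595220 to 164595420, beside 164595100 to 164595220) and chromosome 10 (61949710 to 61949860, beside 61949860 to 61950080). Next came a region on chromosome 4 (118775000 to 118775230), 10 bases from the 0 h region at 118775240 to 118775330. Each of these 3 neighbours had 1 centre and no overlap at 1 h, so a site listed at slightly different limits cannot be told apart from a new one there. Just outside the rule, 14 regions were met by a 0 h region that reached no more than 10 bases past one of their limits. With a reach of no more than 50 bases the number was 170, so small shifts of limits would change membership. A gap of 100 bases or less was found in 9 of the 291 and one of 1000 bases or less in 80.

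At the far end, 5 regions had no 0 h region within 20 kb. The most distant was on chromosome 1 from 89268480 to 89268630, 150 bases wide with centres at 89268545 and 89268530, and 37030 bases from the 0 h list. The next were on chromosome 6 (70790390 to 70790520, 25400 bases away) and chromosome 11 (55492960 to 55493020, 24620 bases away). None of the 5 was at one of the 46 loci, and 4 had no other region of either list within 10 kb.

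The widest 1 h-only region covered 540 bases on chromosome 7, from 52380150 to 52380690, with centres 15 bases apart, and stood alone: the nearest 0 h region was 14590 bases away and no region of either list lay within 10 kb. The next, of 530 bases on chromosome 15 from 80089230 to 80089760, had 3 other 1 h regions within 10 kb. Of these, 1 had no overlap at 0 h and a centre in 1 column only. A region of 470 bases on chromosome 11 (74991700 to 74992170), equal in width to that at Jund, stood in denser surroundings, with 4 0 h regions and 6 other 1 h regions within 10 kb. A pair on chromosome 7 at 16520290 to 16520730 and 16534120 to 16534430 was 440 and 310 bases wide, and both had a 0 h neighbour that was still listed at 1 h. Of the others among the 10 widest, chromosome 8 held 2, with 330 bases at 81674460 to 81674790 and 270 bases at 67195590 to 67195860. Chromosome 7 held another of 310 bases at 4100370 to 4100680. Of the 9 regions of at least 300 bases, 2 were at the loci, at Jund and Fosl2.

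Few 1 h-only regions were neighbours of one another. Only 6 of the 291 had another within 10 kb, in 3 pairs. The pairs at Npas4 and Btg2 are described above, and the third lay on chromosome 4 from 47614660 to 47614890 and from 47616810 to 47616930, 1920 bases apart. Taken with single-column regions, 42 of 291 (14.4%) had another 1 h-only region within 10 kb, against 7.60% of the met regions with 2 centres. None of the 43 regions of the WT list overlapped any of the 291. So short a list can overlap few regions of any kind, and its overlap with the other 1 h regions was not counted.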

How the data were processed

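Of 60 samples, the 4 ChIP-seq libraries of the 0 h and 1 h groups and the list of the WT group were used. The authors deposited 1 list per group with region limits and 2 centre positions (other values: whole positions in bases, -1 for none). Per the submitters' processing notes, reads were aligned with Bowtie and the build was mm9. Peak calling, the combining of replicates and the counting base of starts (0 or 1) are not stated in the labels or headers. The columns c1 and c2 were read as replicate centres from their values.

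Overlap meant at least 1 shared base. Gaps run between the nearest limits. Regions within a stated distance were counted between middles. Shares have exact Clopper-Pearson 95% intervals (scipy 1.17.1, Python 3.11.15). The gap code was tested on simulated regions. No test was made of the regions themselves, since the rule used their values and the lists hold no value per library. The regions, loci and measures were chosen with earlier results of these data known. The 46 locus positions came from general knowledge and not from an annotation. Gene-start and motif analyses of the regions were planned for an mm9 genome and not run. The regions named are the 10 widest, those at the loci, pairs within 10 kb, and the 3 closest to and 3 farthest from the 0 h list. Other loci, named with counts, and the single-column regions were chosen after their values were seen.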

Additional observations from a re-analysis of the deposited data

How the results depend on the processing

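The count of 291 kept within 1.5 times its value when a 0 h region within 250 bases (275) or 1 kb (211) counted as met, and with minimum widths of 50 or 100 bases (286 and 242) or centres at most 50 bases apart (266). It rose to 4438 when the overlap had to span 50% or more of each region, to 520 with centres within 250 bases and to 2306 when only 0 h regions with 2 centres could meet, as follows from stricter meeting. Without 1 replicate column it ran from 743 (second 0 h column left out) to 6907 (second 1 h column), with 1819 without the first 0 h column and 1554 without the first 1 h column. Of the 12 regions at the loci, 10 remained under the 1 kb setting, 11 with the 100-base width and 10 with the 50-base centre distance. The settings that raised the count, except that of centres within 250 bases, keep every one of the 291 by construction. The 12 made up 4.12% of the 291. The share of regions at the loci was 0.586% of the 4438, 2.50% of the 520, 0.824% of the 2306 and 0.666% to 1.88% with 1 column left out. With windows of 10 and 50 kb, chosen after seeing the data, 10 and 12 regions lay at the loci. The median width was 150 bases with regions over 1 kb from the 0 h list and on chromosomes 1 to 19, and the median centre distance was 20 and 15 bases. No paired analysis was possible because neither column is tied to a library. Gene-start and motif alternatives, and gene-body windows, were not run. With no read counts, no detection limit was set.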
